A study of Saccharomyces cerevisiae with 15 samples.

Results

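The data describe where RNA polymerase I (Pol I) stood along the 35S ribosomal RNA gene of wild-type budding yeast when the lysate was left untreated, at every position of the gene and in all 3 untreated libraries of a series of 15. NET-seq (native elongating transcript sequencing) was used, in which the RNA held by an immunoprecipitated polymerase is sequenced from its 3′ end, and a read therefore reports the nucleotide incorporated last. The strain carried a (His)7-(HA)3 tag on Rpa135, a Pol I subunit, and was grown in YEPD at 30 °C; each replicate was a separate culture, cells were broken while frozen, and neither a divalent cation nor a nuclease was added. The other 12 libraries, made from treated lysates, were not used.

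Pol I transcribes the 35S precursor as a single RNA, from which the 18S, 5.8S and 25S rRNAs are cut. The external spacers ETS1 and ETS2 and the internal spacers ITS1 and ITS2 are removed and degraded. A polymerase that moves slowly or pauses at a position is caught there more often. The paper therefore takes pausing as the simplest reading of a high peak and faster transcription as that of a low one. It also states that NET-seq has no time variable and so gives no kinetic information. Libraries of this kind also hold mature rRNA, so within the rRNA genes the 3′ ends of mature or broken rRNA and those held by Pol I cannot be told apart, and the spacers are the clearer view of nascent RNA.

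The gene was RDN37-2 on the minus strand of chromosome XII (chrXII:460712-467569, R64), and positions below are counted from 1 at its 5′ end. ETS1 spans positions 1 to 700, 18S 701 to 2500, ITS1 2501 to 2861, 5.8S 2862 to 3019, ITS2 3020 to 3251, 25S 3252 to 6647 and ETS2 runs from 6648 to the end. The annotated copy RDN37-1 differs at 0 positions, so occupancy sums over repeats. Values are CPM (reads per 1000000 reads of the library on the gene up to the terminator T1), and the libraries held 6885172, 5509736 and 4917851 reads on that stretch. The spacers, with ETS2 past T1 included, held 475760, 360496 and 348692 reads. A single read was worth 0.145, 0.181 and 0.203 CPM.

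The sites that stood highest above their surroundings in the spacers are shown first, because the sections on local peaks and on sequence return to them. Each line gives 10 nucleotides to either side (as RNA, 5′ to 3′, from R64, minus strand), with the last incorporated nucleotide in capitals.
Position 6662, chrXII:460898-460918: uauuucuuucUaaguggguac
Position 232, chrXII:467328-467348: gcguuuaaccUgaacagucuc
Position 6739, chrXII:460821-460841: uuuauuugucUuaagaauucu
Position 3158, chrXII:464402-464422: cggucguuuuAgguuuuacca
Position 6661, chrXII:460899-460919: uuauuucuuuCuaagugggua
Position 2659, chrXII:464901-464921: auuccaaacgGugagagauuu
Position 3025, chrXII:464535-464555: cauuuccuucUcaaacauucu
Position 437, chrXII:467123-467143: aaacaccgggGuaucuguuug

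The 3 libraries gave nearly the same profile. Spearman's rho between pairs of libraries was 0.978 to 0.986 across spacer positions and 0.967 to 0.982 across rRNA gene positions. Within single regions, it ran from 0.954 in ITS1 and ETS2, the lowest, to 0.994 in 5.8S. These are correlations across positions, which are not independent replicates, and they are given as a description. Of 6733 positions with at least 10 reads in every library, 89.6% had a highest library within 1.5-fold of the lowest and 98.1% within 2-fold. The median coefficient of variation over libraries was 12.4% in spacers and 9.37% in rRNA genes. It was 18.5% at the 292 positions with a mean of 10 to 50 reads and 8.69% at the 1866 positions with a mean of 1000 reads or more. Between any pair of libraries, the mean chi-square per position was 11 to 15.2, where counting noise alone gives about 1, so no pair agreed within counting noise over the gene. At positions with a mean of 10 to 50 reads the spread was nearer to counting noise, with a dispersion index (chi-square over the 3 libraries per degree of freedom) of 1.39 in the mean and 0.955 in the median.

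Spacers held far less signal than the rRNA genes. They took 6.85% ± 0.279 of occupancy over 1504 positions, and the rRNA genes took 93.2% ± 0.279 over 5354 positions (SD, n = 3). The mean per position was 45.5 ± 1.85 CPM in spacers and 174 ± 0.516 CPM in rRNA genes (SD, n = 3). Among the spacers, ETS1 was the highest, at 61.6, 57.1 and 62.8 CPM per position in replicates 1, 2 and 3. ITS2 followed, at 45.8, 46.6 and 44.7 CPM per position. ITS1 had 30.8, 29.3 and 32.6 CPM per position, and ETS2 had 20.2, 19.3 and 22.6 CPM per position. The libraries of these 4 spacers did not overlap, so this order held in each library over whole spacers. By the mean, the place of ETS2 rested on its 119 positions past T1. Up to T1 alone, the mean of ETS2 was 42.8, 41.2 and 48.2 CPM per position, above every ITS1 library and overlapping ITS2. The most occupied position held 26.3% ± 0.662 of the signal up to T1 (SD, n = 3). By the median, ETS2 up to T1 had 12.9, 11.8 and 14.0 CPM, still below ITS1, at 16.8, 17.2 and 18.3 CPM. Part of the ITS2 level came from its start: without the 10 positions that follow the 3′ end of 5.8S, ITS2 had 35.8 ± 0.510 CPM per position (SD, n = 3), still above every ITS1 library.

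**Figure D1:**
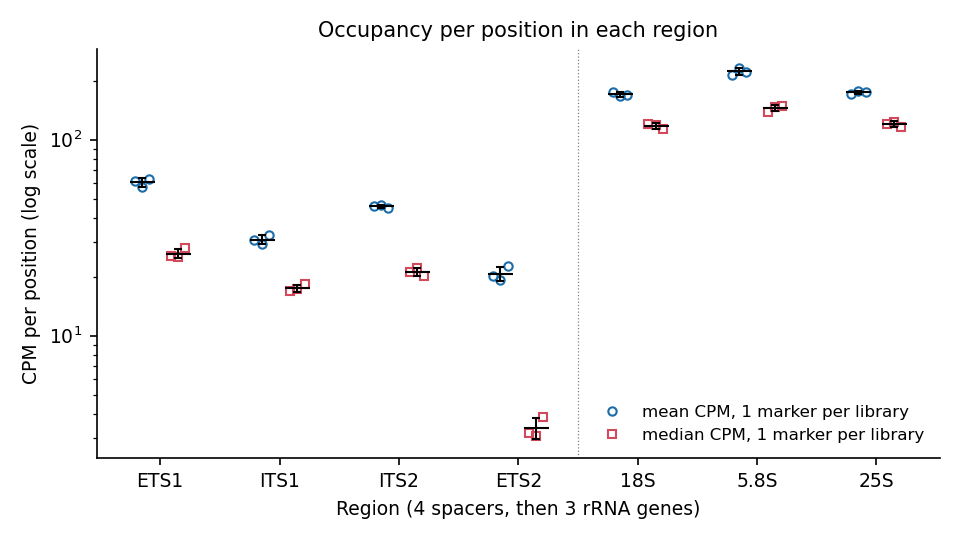
Mean (circles) and median (squares) CPM per position in each of the 7 regions on a log scale, 1 marker per untreated library, with the mean ± SD of the 3 libraries as a black bar. ETS1 leads the spacers at 60.5 ± 3.03 CPM per position, ETS2 over its whole length, positions past T1 included, is lowest at 20.7 ± 1.71 (41.2 to 48.2 up to T1), and all 3 rRNA genes lie above every spacer.

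Spacer signal was also more concentrated. The upper 50% of the signal lay in 8.75% ± 0.269 of spacer positions and in 19.1% ± 0.817 of rRNA gene positions (SD, n = 3). In ETS2, 2.53% ± 0.274 of its 211 positions held that share, and its single most occupied position, 6662, held 24.4% ± 0.668 of the region (SD, n = 3). The corresponding shares of positions were 10.5% ± 0.412 in ETS1, 13.3% ± 0.480 in ITS1 and 9.05% ± 0 in ITS2 (SD, n = 3). Without the 10 positions after 5.8S the share in ITS2 was 14.3% ± 0.938 (SD, n = 3), above that in ETS1 and ITS1, so the concentration in ITS2 rested on those positions. In ETS1, the median position had 26.2 ± 1.42 CPM and the 95th percentile was 236 ± 11.9 CPM (SD, n = 3). Over all spacers, 38 positions make up the top 2.5% of a library. They held 26.7% ± 0.670 of spacer signal (SD, n = 3), and 30 of them were the same in all 3 libraries. ETS1 had 21 of these 30, ITS2 had 4, ITS1 had 3 and ETS2 had 2.

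**Figure D2:**
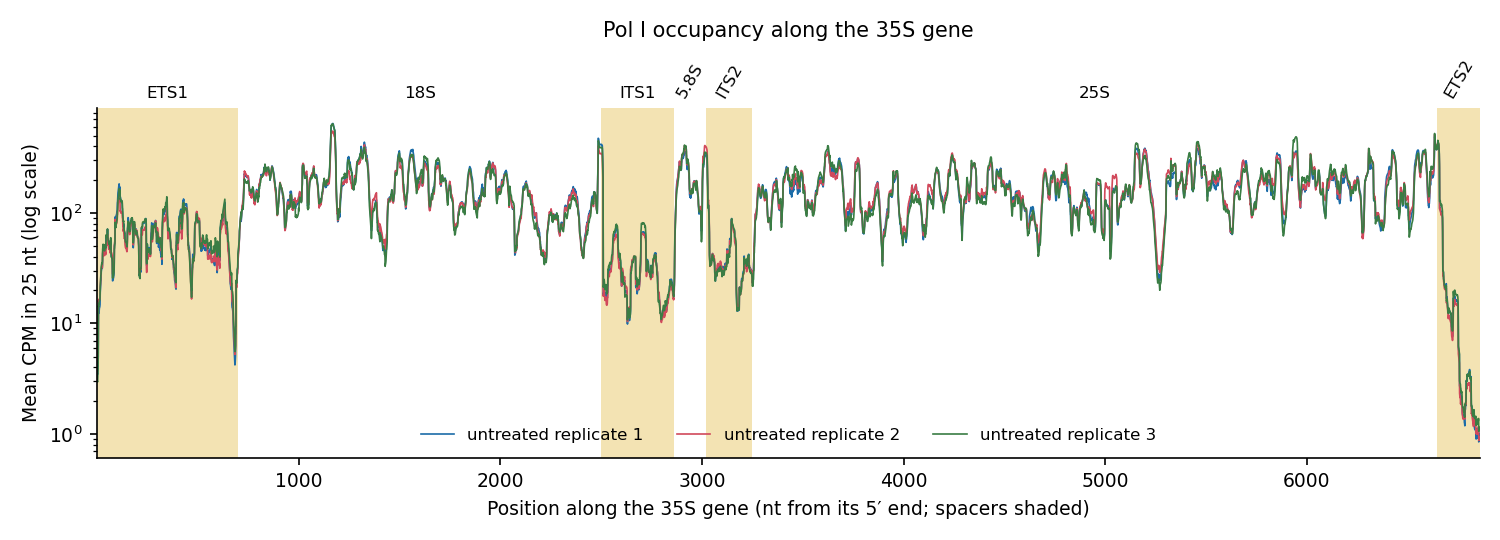
Mean CPM in a sliding stretch of 25 nt along the 35S gene, on a log scale, for the 3 untreated libraries, with spacers shaded. The lines nearly coincide. The profile is lower in the spacers than in the rRNA genes, with an abrupt fall at the 3′ end of 18S and a stepwise decline through ETS2.

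Along ETS1, occupancy was uneven. Averaged over 50 positions, it was highest at positions 101 to 150, with 106 ± 11.7 CPM, and nearly as high at 401 to 450, with 103 ± 7.65 CPM (SD, n = 3). It was lowest at 651 to 700, just before 18S, with 16.5 ± 2.27 CPM (SD, n = 3), a 6.41-fold range. In ITS1, the highest bins were 2701 to 2750 with 49.7 ± 4.35 CPM and 2551 to 2600 with 49.7 ± 4.71 CPM, and the lowest was 2801 to 2850 with 16.1 ± 0.751 CPM (SD, n = 3). In ITS2, the bin at 3020 to 3069 had 79.1 ± 4.37 CPM and the one at 3120 to 3169 had 57.2 ± 0.747 CPM, against 21.0 ± 0.420 CPM at 3170 to 3219 (SD, n = 3). The first of these bins holds the 10 positions after 5.8S, which averaged 266 ± 19.7 CPM (SD, n = 3). The highest and lowest bins of 50 positions differed 3.09-fold in ITS1 and 3.76-fold in ITS2, where those 10 positions raise the highest bin. In bins of 100 positions, which smooth more, they differed 3.54-fold in 18S and 2.90-fold in 25S.

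The most and least occupied stretches of 25 positions differed in purine content in some regions and not in others. They are printed for ETS1 and ITS1, where the contrast was clearest, with purines in capitals.
ETS1 most occupied, chrXII:467448-467472: GuGGAGAGAGucGcuAGGuGAucGu
ETS1 least occupied, chrXII:466873-466897: uGcuuGuuGcuucuucuuuuAAGAu
ITS1 most occupied, chrXII:464982-465006: GGGcAAGAAGAcAAGAGAuGGAGAG
ITS1 least occupied, chrXII:464927-464951: cuuGcuAGGcuuGuAAGuuucuuuc
The ETS1 stretch at positions 98 to 122 had 164 ± 19.4 CPM and was 64% purine, whereas that at 673 to 697 had 5.05 ± 0.688 CPM and was 28% purine (SD, n = 3). In ITS1, the stretch at 2564 to 2588 had 72.3 ± 7.97 CPM and was 88% purine, and that at 2619 to 2643 had 10.3 ± 0.452 CPM and was 32% purine (SD, n = 3). In 18S the most occupied stretch, at 1157 to 1181, had 609 ± 54.0 CPM (SD, n = 3) and was 76% purine, against 44% purine and 37.0 ± 2.90 CPM at 2207 to 2231. In 5.8S, the stretch at 2902 to 2926 had 393 ± 23.8 CPM and was 68% purine, against 48% purine and 65.9 ± 10.3 CPM at 2986 to 3010. ITS2, 25S and ETS2 did not follow this. Their most occupied stretches, at 3021 to 3045, 6622 to 6646 and 6650 to 6674, all lay beside the 3′ end of a mature rRNA and were 36%, 40% and 36% purine. Their least occupied stretches, at 3169 to 3193 with 13.2 ± 0.266 CPM, at 5259 to 5283 with 24.4 ± 4.49 CPM and at 6829 to 6853 with 1.04 ± 0.145 CPM (SD, n = 3), were 32%, 40% and 44% purine.

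The very start of the gene was almost empty. Positions 1 to 11 had 14, 18 and 7 reads in all in replicates 1, 2 and 3. Position 12 was the first with more than 3 reads in every library, at 25.9, 38.5 and 24.6 CPM. From there to position 50 the mean was 37.9 ± 1.29 CPM (SD, n = 3). The first 30 nucleotides are printed with position 12 and those after it in capitals.
Start of ETS1, chrXII:467540-467569: augcgaaagcaGUUGAAGACAAGUUCGAAA
The 5′ ends of 5.8S and 25S were low relative to the positions that follow, though not empty. The first 13 positions of 5.8S had 15.7, 14.2 and 15.8 CPM, against 333, 322 and 282 CPM over the next 13. The first 13 positions of 25S had 14.8, 15.6 and 14.5 CPM, against 172, 172 and 150 CPM over the next 13. In 18S the step was smaller, with 72.5, 67.1 and 77.2 CPM over the first 13 positions and 117, 127 and 119 CPM over the next 13. Whether these low starts come from Pol I or from the lengths of RNA that the libraries retain was not tested.

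At the 3′ ends of the mature rRNAs the files held stretches of 0. Positions 2499 to 2501, 3018 to 3020 and 6647 to 6649 were at 0 in all 3 libraries, as was position 6, and the sources do not say why. The 10 positions before each stretch were high, at 927 ± 89.8 CPM for 18S, 623 ± 68.1 CPM for 5.8S and 858 ± 12.4 CPM for 25S (SD, n = 3). The 10 positions after it were at 24.7 ± 1.6 CPM for 18S, 266 ± 19.7 CPM for 5.8S and 73.9 ± 6.22 CPM for 25S (SD, n = 3). Thus the fall across the end of 18S was the steepest, and after 5.8S the signal stayed above the 45.7 ± 0.944 CPM mean of ITS2 (SD, n = 3). The most occupied position after each stretch was 2504 in ITS1 with 51.1, 50.6 and 53.5 CPM, 3025 in ITS2 with 654, 751 and 656 CPM, and 6650 in ETS2 with 156, 167 and 156 CPM. Reads there can be the ends of partly trimmed precursors, which cannot be told apart from ends held by Pol I.

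ETS2 was examined for the 3′ end of the gene, where Rnt1, an RNase III, cuts the precursor co-transcriptionally and where Pol I terminates at T1 near a site for the DNA-binding proteins Reb1 and Nsi1. The files mark positions 6663 to 6697 as cleaved by Rnt1, T1 at position 6739 and the protein site at 6757 to 6767, 18 nucleotides after T1. The cleaved stretch is printed with the nucleotides just before it, positions 6661 and 6662, in capitals, and the terminator with T1 and the protein site in capitals.
Rnt1 stretch, chrXII:460873-460922: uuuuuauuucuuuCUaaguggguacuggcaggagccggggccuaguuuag
Terminator, chrXII:460803-460846: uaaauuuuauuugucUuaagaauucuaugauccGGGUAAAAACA
Position 6662 was the most occupied spacer position by the mean of the libraries and in replicates 2 and 3, with 1012, 992 and 1197 CPM, and position 6661 had 580, 595 and 695 CPM. The signal dropped there, and the next position, 6663, had a mean of 14.6 CPM. These 2 positions abut the cleaved stretch, so cleaved ends and ends held by Pol I cannot be told apart. Within the cleaved stretch, the mean was 23.7 ± 1.08 CPM, and between it and T1 it was 11.4 ± 1.25 CPM (SD, n = 3).

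T1 itself stood out. Position 6739 had 181, 170 and 190 CPM, against a median of 6.10, 5.63 and 7.22 CPM over the 40 positions before it and 1.74, 1.72 and 2.24 CPM over the 40 positions after it. Past T1 the signal did not vanish at once. The 17 positions between T1 and the protein site averaged 7.10 ± 0.561 CPM and the 11 positions of the site 2.72 ± 0.402 CPM (SD, n = 3). The most occupied position past T1 was 6745, an adenine 6 nucleotides on, with 65.2, 51.5 and 58.8 CPM (449, 284 and 289 reads). From 41 nucleotides past T1 to the end, the mean was 1.88 ± 0.156 CPM (SD, n = 3). All 119 positions past T1 held 2249, 1594 and 1690 reads, so single positions there rest on few reads. Of the signal past T1, 66.7% ± 1.66 ended in adenine (SD, n = 3), the nucleotide at 35.3% of those positions.

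**Figure D3:**
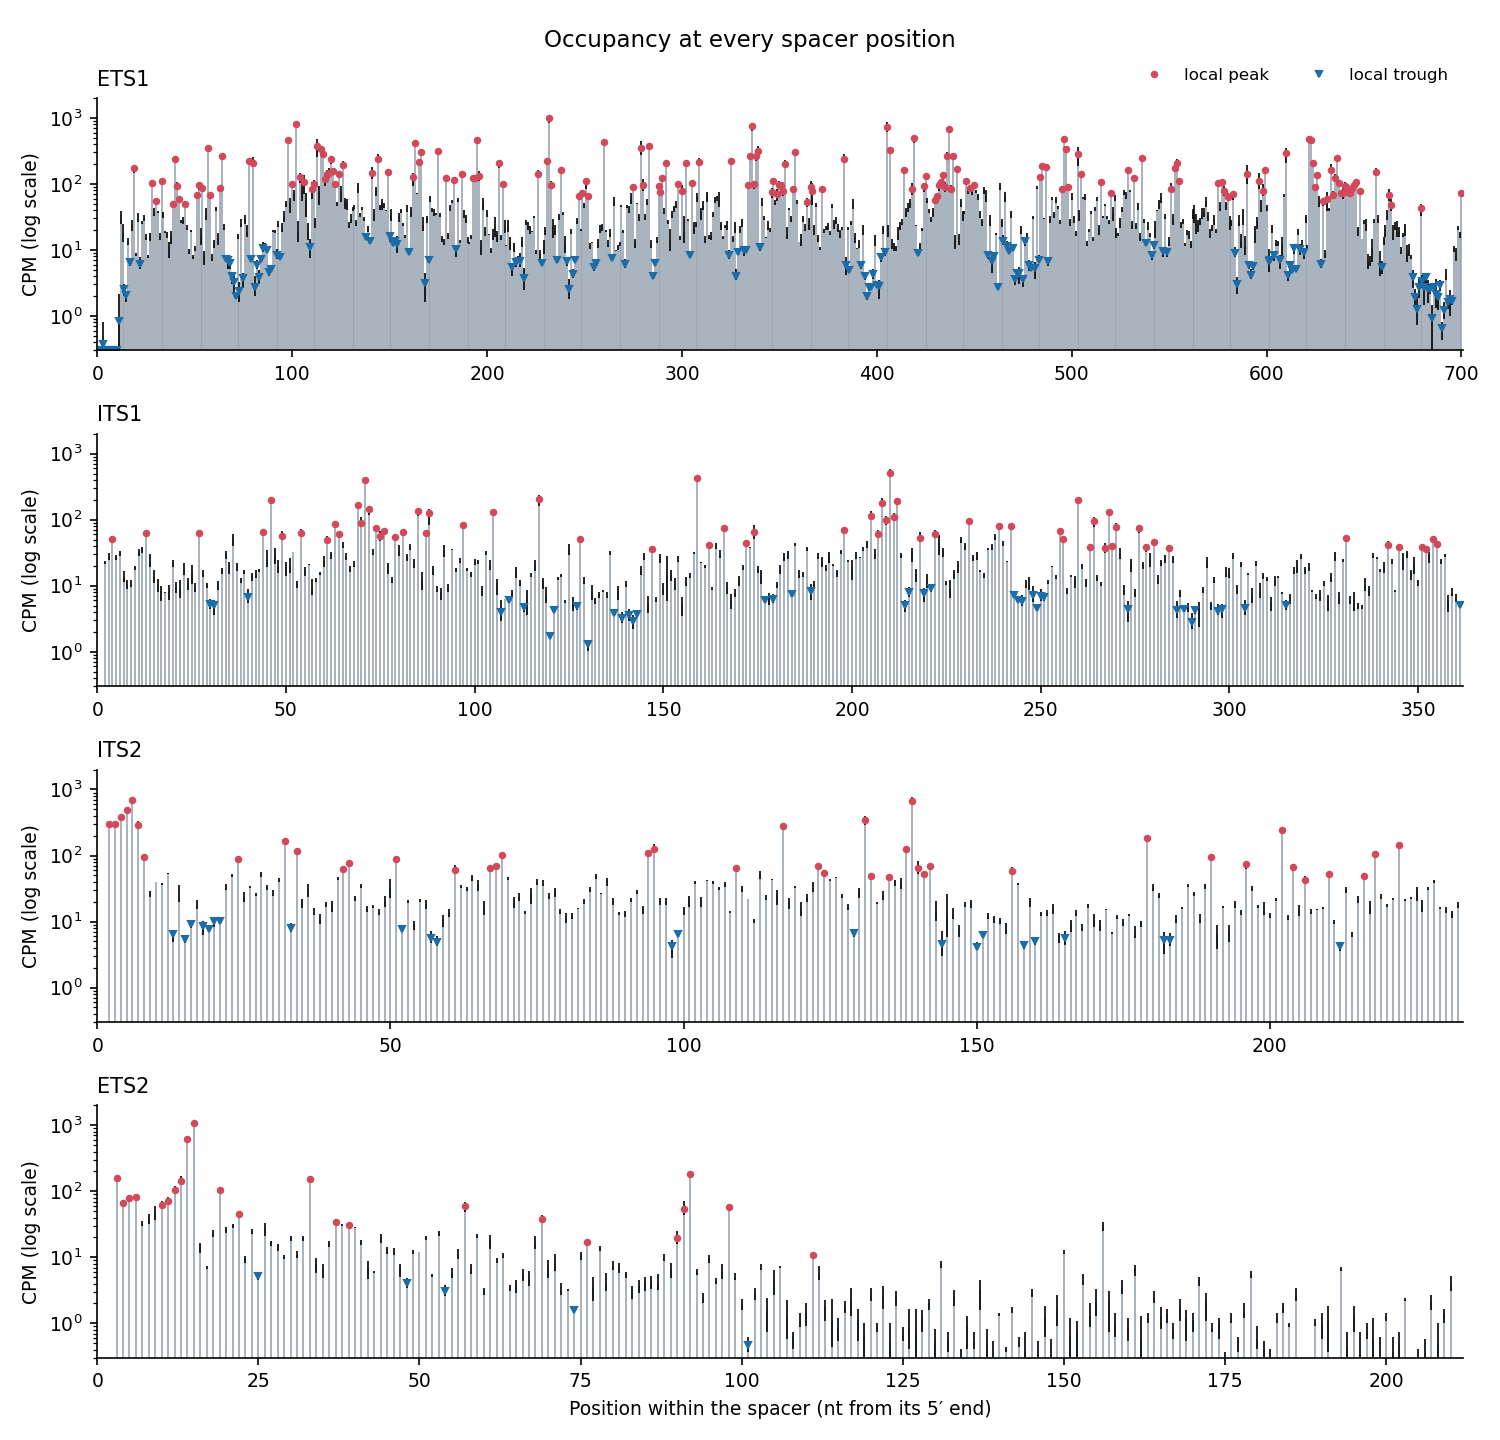
CPM at every position of the 4 spacers on a log scale, with grey bars to the mean of the 3 untreated libraries and black bars from the lowest to the highest library. Local peaks are red dots and local troughs blue triangles, and values under 0.3 CPM are drawn at 0.3. Peaks stand as separate spikes above a low floor in ITS1 and ITS2, and in ETS2 the signal drops after the spike at T1.

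To find local peaks and troughs, each position was compared with the median of the 50 positions to each side of it in the same region, as log2((CPM + 1)/(window median + 1)), called the local log2 ratio. A position was called a local peak or trough where the ratio differed from 1 by more than 2-fold in the 3 libraries together (limma's treat test with Benjamini-Hochberg adjustment, adjusted p-value under 0.05). Positions at 0 in every library, or with a window median under 10 reads in any library, were not tested, which left out 99 positions, 91 of them in ETS2. Of 6759 positions tested, 1011 (15.0%) were local peaks and 921 (13.6%) were local troughs. The log2 ratio adds 1 CPM to both values and so understates the depth of troughs. The peaks closest to the limit were position 767, called at 1.19 (limma adjusted p = 0.0481), and position 2119, not called at 1.20 (limma adjusted p = 0.0508).

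Local peaks were more frequent in spacers, at 303 of 1410 positions tested (21.5%), than in rRNA genes, at 708 of 5349 (13.2%). Among the spacers ETS1 had the most, with 24.7% of positions tested, followed by ETS2 with 19.2%, ITS2 with 18.2% and ITS1 with 18.1%. The rRNA genes had 12.5% in 18S, 10.9% in 5.8S and 13.8% in 25S. Spacer peaks were also taller, with a median local log2 ratio of 2.04 in spacers and 1.67 in rRNA genes, and they held 67.8% ± 0.663 of spacer signal and 38.5% ± 1.01 of rRNA gene signal (SD, n = 3). These shares compare regions of one set of libraries and have no test over samples. Troughs were 14.8% of spacer and 13.3% of rRNA gene positions tested, and were most frequent in 5.8S (20.5%) and ETS1 (20.0%). In 5.8S, 14 of the 32 troughs were a single run at its low 5′ end, 2862 to 2875, so its rank rested on that edge.

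Peaks were narrow in spacers. At the 200 spacer peaks that exceeded both neighbours, the preceding position had a median of 27.6% ± 0.824 of the summit CPM and the following position 24.4% ± 1.21 (SD, n = 3). At 431 such peaks in rRNA genes these were 50.6% ± 0.528 and 50.9% ± 1.32 (SD, n = 3). Of the 99 runs of adjacent peaks in ETS1, 70 were a single position, and the longest ran from 633 to 646. In ITS1, 36 of 46 runs were single positions, in ITS2 19 of 26 and in ETS2 10 of 13. The longest runs there were 2707 to 2712, 3021 to 3027 and 6657 to 6662, and the last 2 adjoin a mature 3′ end or the Rnt1 stretch. Trough runs reached 12 positions in ETS1, at 680 to 691, 14 in 5.8S at 2862 to 2875 and 13 in 25S at 3252 to 3264.

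In ETS1, the most occupied position was 232, with 1105, 852 and 1019 CPM, a local log2 ratio of 5.55 ± 0.102 (SE; limma adjusted p = 7.05e-12). Position 102 had 889, 772 and 743 CPM, and position 336 had 795, 623 and 830 CPM, with ratios of 4.47 ± 0.0912 and 4.61 ± 0.103 (SE). Position 437, at 733, 675 and 608 CPM, was the last of the 8 tallest spacer peaks, at 4.62 ± 0.0903 (SE). In each of these the lowest library stood far above the neighbourhood, since the local log2 ratio in single libraries was never below 4.30.

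In ITS1, position 2710 had 459, 488 and 590 CPM, position 2659 had 454, 436 and 381 CPM, and position 2571 had 398, 348 and 439 CPM. Position 2659 had the highest local log2 ratio of them, 4.80 ± 0.0935 (SE; limma adjusted p = 9.08e-12), and its neighbours had means of 31.1 and 22.7 CPM. Position 2710 lay inside a broader run, between neighbours with means of 98.5 and 110 CPM.

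In ITS2, beyond the positions after 5.8S, position 3158 had 660, 611 and 765 CPM, a local log2 ratio of 5.09 ± 0.102 (SE; limma adjusted p = 9.08e-12). Position 3150 had 403, 346 and 289 CPM and position 3136 had 300, 286 and 261 CPM. These 3 peaks lie within 23 nucleotides of each other. Position 3025 reached 4.73 ± 0.0886 (SE) in the stretch after 5.8S described above.

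In ETS2, position 6662 was the tallest of all spacer peaks, at 5.8 ± 0.0969 (SE; limma adjusted p = 3.99e-12). Position 6661 reached 5.00 ± 0.0863 and T1 5.19 ± 0.0790 (SE; limma adjusted p = 3.47e-12). T1 thus had the third highest local ratio of all spacer peaks, although its CPM was the lowest of the 8 printed first, since the level around it was low.

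In the rRNA genes the tallest signal sat at the mature 3′ ends. Position 2498, which lies 2 before the last position of 18S, had 5421, 3947 and 4629 CPM, and position 6646, next to the last position of 25S, had 3881, 3659 and 3797 CPM. In 5.8S, position 3015 had 1622, 2231 and 1821 CPM and position 3017 had 1514, 1735 and 1409 CPM. Away from the ends, position 1031 in 18S had 2140, 2257 and 1863 CPM and position 5158 in 25S had 2337, 2074 and 2563 CPM.

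The 4 lowest local ratios among spacer troughs were at positions 4, 5, 8 and 9, all in the empty start of ETS1, where each library had 0 to 2 reads, so no ratio is given. After position 11, a limit chosen once these values had been seen, the lowest were 462, 395, 168 and 685, all in ETS1.
Position 462, chrXII:467098-467118: aaccugauuaGaggaaacuca
Position 395, chrXII:467165-467185: aaccuccucuCaaaucagcga
Position 168, chrXII:467392-467412: gacauggguuGaugcguauug
Position 685, chrXII:466875-466895: cuuguugcuuCuucuuuuaag
Position 462 had 3.20, 2.72 and 2.44 CPM (22, 15 and 12 reads), beside a neighbour with a mean of 89.7 CPM, and its local log2 ratio was -3.43 ± 0.146 (SE; limma adjusted p = 1.35e-08). Position 395 had 1.74, 2.00 and 2.24 CPM, at -3.29 ± 0.143 (SE). Positions 168 and 685 rested on 22, 25 and 8 reads and on 2, 8 and 5 reads, and their libraries spread more, with coefficients of variation of 46.7% and 63.8%. These 4 end in guanine, cytosine, guanine and cytosine. None ends in adenine, the last nucleotide at 28.0% of spacer positions tested and 16.8% of spacer troughs. None ends in uracil either, which is at 32.5% of positions tested and 48.1% of troughs.

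The nucleotide last incorporated differed between peaks and the positions tested. Among 303 spacer peaks, 44.9% ended in adenine, against 28.0% of spacer positions tested, and 26.7% in guanine, against 23.4%. Uracil ended 17.5% of peaks, against 32.5% of positions tested, and cytosine 10.9%, against 16.1%. Troughs were the mirror image, since 48.1% of the 208 spacer troughs ended in uracil and 16.8% in adenine. In the rRNA genes, 45.2% of 708 peaks ended in adenine, against 26.6% of positions tested, but guanine ended only 17.8% of peaks, against 27.3%. The excess of guanine as the last nucleotide of spacer peaks lay mainly in ETS1, with 31.2% of peaks against 25.2% of positions tested. It was 21.5% against 20.3% in ITS1, and guanine was below its background share in ITS2, at 19.0% against 22.9%, and in ETS2, at 21.7% against 23.3%. Adenine ended 45.1% of peaks against 27.9% of positions tested in ETS1, 58.5% against 30.3% in ITS1 and 35.7% against 24.2% in ITS2. In ETS2 it was below its background share, at 21.7% of 23 peaks against 29.2%. A run of 6 of these ETS2 peaks, 6657 to 6662 beside the Rnt1 stretch, ends only in uracil or cytosine. It lowers both the adenine and the guanine share there.

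The nucleotide before the last one differed as much. Guanine preceded 41.9% of spacer peaks, against 23.3% of spacer positions tested, and 9.62% of spacer troughs. In the rRNA genes it preceded 44.9% of peaks, against 27.3% of positions tested, and 12.3% of troughs. The mean local log2 ratio in spacers was 0.93 ± 0.0169 where guanine came before and 0.70 ± 0.0461 where adenine came last (SD, n = 3 libraries), against a mean of 0.15 over all spacer positions tested. In rRNA genes these were 0.43 ± 0.0253 and 0.41 ± 0.0497 (SD, n = 3), against -0.02. The spread between libraries was small beside these differences.

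**Figure D4:**
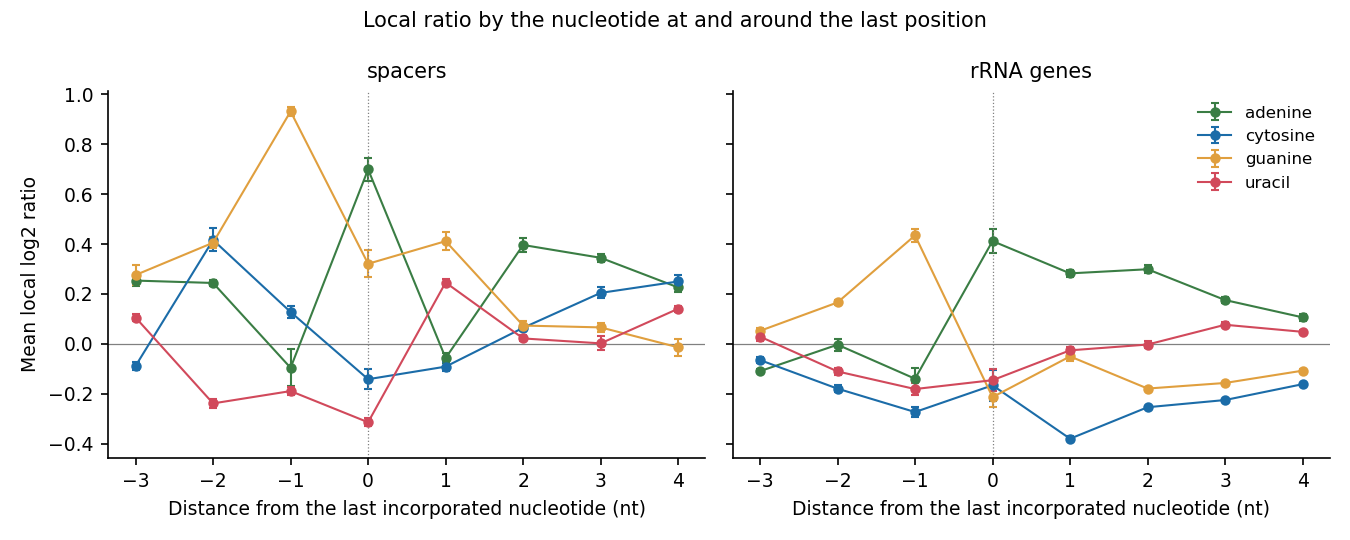
Mean local log2 ratio (mean ± SD of the 3 untreated libraries) by which nucleotide stands at each distance from the last incorporated one, in spacers (left) and rRNA genes (right). In both panels guanine is highest at -1 and adenine at 0, at 0.93 and 0.70 in spacers.

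The association faded within a few nucleotides. The nucleotide at -1 accounted for 8.36% ± 0.679 of the variance of the local log2 ratio in spacers and the last nucleotide for 7.38% ± 0.839 (SD, n = 3). The share was 3.34% ± 0.336 at -2, 1.70% ± 0.151 at +1 and 0.711% ± 0.107 at -3 (SD, n = 3). In rRNA genes it was 5.65% ± 0.739 at -1, 4.87% ± 0.728 at the last nucleotide and 3.51% ± 0.0892 at +1 (SD, n = 3). Downstream the region types differed: adenine at +1 had a mean ratio of 0.28 ± 0.0150 in rRNA genes but -0.06 ± 0.0185 in spacers, where guanine and uracil at +1 were higher, at 0.41 ± 0.0355 and 0.25 ± 0.0138 (SD, n = 3). Most of the variance was not accounted for by any single nucleotide.

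Taking the last 2 nucleotides together sharpened the contrast. Of 99 spacer positions with guanine then adenine, 58.6% were peaks and 1.01% were troughs, and their mean local log2 ratio was 1.62 ± 0.0370 (SD, n = 3). Of 78 with guanine after guanine, 39 were peaks, with a mean of 1.36 ± 0.0301 (SD, n = 3). At the other end, 8.67% of 196 positions with uracil after uracil were peaks and 27.0% were troughs, with a mean of -0.56 ± 0.0426 (SD, n = 3). In the rRNA genes, guanine then adenine was again the pair with the most peaks, at 34.1% of 405 positions, and guanine after guanine gave 19.3% of 425. Cytosine then guanine was a peak at 11 of 46 spacer positions (23.9%) but at 5 of 250 rRNA gene positions (2.00%). Of those 11, ETS1 had 8, which is 30.8% of its 26 such positions. ITS1, ITS2 and ETS2 had 1 each, of 9, 9 and 2 positions, so the contrast lay mainly in ETS1. By spacer, the order of these pairs varied: in ETS1 guanine after guanine had the higher share of peaks, 64.1% of 39 positions, against 61.8% of 55 for guanine then adenine. ETS2, with few positions of each pair, reversed part of the contrast. There guanine then adenine was a peak at 1 of 8 positions, below the 19.2% of all ETS2 positions tested. Uracil after uracil was a peak at 5 of 16 in ETS2, with a mean of 0.68 ± 0.0332 (SD, n = 3). Some of these 5 lie in the run at 6657 to 6662, beside the Rnt1 stretch. Cleaved ends and ends held by Pol I cannot be told apart there. The 183 spacer positions with guanine before and a purine last, 12.2% of the total, held 28.7% ± 0.620 of spacer signal (SD, n = 3).

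**Figure D5:**
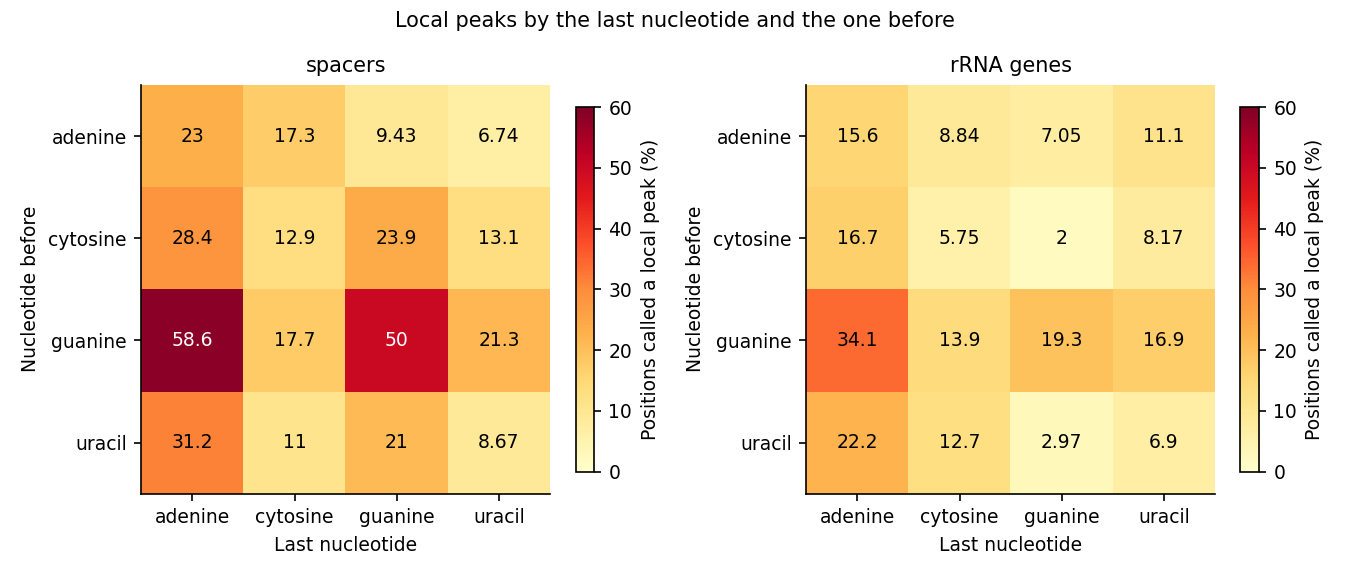
Percent of positions tested that were called a local peak, by the last nucleotide (columns) and the one before it (rows), in spacers (left) and rRNA genes (right). Guanine followed by adenine is highest in both, at 58.6% and 34.1%.

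The nucleotide before was then examined in the spacers one by one. Guanine before gave a mean local log2 ratio of 1.05 ± 0.0280 in ETS1, 0.85 ± 0.0152 in ITS1 and 0.81 ± 0.0226 in ITS2 (SD, n = 3), the highest of the 4 nucleotides in each. In ETS2 it was 0.60 ± 0.0484, below the 0.79 ± 0.00870 of cytosine (SD, n = 3), and uracil was the highest last nucleotide, at 0.61 ± 0.0502 (SD, n = 3). ETS2 had only 17 positions with cytosine before, among them 6662 and 6739.

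With the nucleotide after included, 60 contexts of 3 nucleotides occurred at 8 or more spacer positions. The highest was GGU (the middle letter is the last incorporated nucleotide), at a mean local log2 ratio of 2.11 ± 0.0439 over 23 positions, of which 16 were peaks (SD, n = 3). Next came GGG at 1.90 ± 0.0399 over 19 positions, of which 14 were peaks (SD, n = 3). The lowest was AUG at -1.07 ± 0.102 over 16 positions, of which 7 were troughs (SD, n = 3). The second lowest was UCA at -0.83 ± 0.0667 over 19 positions, of which 7 were troughs (SD, n = 3). In rRNA genes the same contexts were less extreme, with GGU at 0.41 ± 0.0536 and GGG at 0.51 ± 0.0487, and UCA at 0.19 ± 0.0630 was on the other side of 0 (SD, n = 3). Across the 60 contexts, the means in spacers and rRNA genes had a Pearson's r of 0.587 and a Spearman's rho of 0.505, given as a description over contexts that share libraries. Positions of one context varied widely, with an SD over positions of 1.46 for GGU and 1.86 for UCA.

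The 8 tallest spacer peaks did not follow the common pattern. It did hold among the 126 spacer peaks called at a 4-fold threshold, of which 46.8% ended in adenine and 46.0% had guanine before. Of the 8 printed first, 4 ended in uracil, and in all 4 (positions 6662, 232, 6739 and 3025) the nucleotide before was cytosine. Only 11 of all 303 spacer peaks had this pair, and over 84 spacer positions with it the mean local log2 ratio was -0.23 ± 0.0525 (SD, n = 3). Guanine came before the last nucleotide in 2 of the 8, positions 2659 and 437. Positions 6662 and 3025 lie beside the Rnt1 stretch and the 3′ end of 5.8S and 6739 is T1, whereas the files mark no feature at 232. This pair was noticed after the values had been seen.

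By CPM alone, the top 2.5% of spacer positions showed a like picture for the nucleotide before the last one, but not for the one after. Guanine preceded 55.3% ± 2.63 of them, against 23.0% of all spacer positions, and adenine 6.14% ± 3.04, against 28.3% (SD, n = 3). Uracil followed 49.1% ± 5.48 of them, against 33.1% (SD, n = 3). Among called spacer peaks uracil followed 34.7%, against 32.6% of positions tested. The 30 positions shared by all 3 libraries were all called local peaks, so the likeness is not separate support.

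Wider features of the sequence related weakly to the local ratio. Over spacer positions, Spearman's rho with the number of guanines and cytosines among the last 9 nucleotides was 0.0982 to 0.123 in single libraries, and with that among the next 10 it was 0.0117 to 0.0191. In the rRNA genes the next 10 gave -0.186 to -0.164. The predicted folding energy of the 35 nucleotides of RNA ending 10 before the position gave 0.0829 to 0.0937 in spacers and -0.00958 to 0.00856 in rRNA genes. These describe neighbouring positions of 1 gene, which share sequence.

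Occupancy of neighbouring positions was alike mainly over short distances. Between adjacent positions, the correlation of log2(CPM + 1) was 0.48 ± 0.0116 in ETS1, 0.44 ± 0.0149 in ITS1 and 0.45 ± 0.0217 in ITS2, and 0.68 ± 0.0197 in 18S, 0.76 ± 0.00827 in 5.8S and 0.69 ± 0.0275 in 25S (SD, n = 3 libraries). At a distance of 5 it was 0.22 ± 0.0206 in ETS1, 0.16 ± 0.0117 in ITS1 and 0.08 ± 0.00576 in ITS2 (SD, n = 3). ETS2 kept 0.65 ± 0.00583 at that distance, but once a running median over 50 positions to each side was subtracted this was 0.14 ± 0.0247 (SD, n = 3). With that trend removed, no distance from 11 to 200 positions had a correlation above 0.0629 in 18S, 0.0841 in 25S or 0.196 in ETS1, and the shorter regions reached at most 0.261, in ETS2. The lowest were -0.166 in 18S, -0.130 in 25S and -0.255 in ETS1. Subtracting the running median can also remove slower swings. With the trend kept, the highest were 0.217 in 18S, 0.121 in 25S, 0.180 in ETS1 and 0.253 in ITS1. They were 0.0551 in 5.8S, 0.236 in ITS2 and 0.624 in ETS2.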

How the data were processed

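NET-seq libraries were prepared from 3 untreated wild-type cultures. Per the study's methods and the submitters' processing notes, reads were deduplicated by unique molecular identifier, trimmed with cutadapt (3.4), aligned to R64 with STAR (2.7.1a), and 3′ ends were counted per nucleotide with BEDTools (2.28.0). The deposited values are CPM, which the authors scaled to 1000000 up to T1 (position 6739) in each library. CPM were whole multiples of 1 read, to within 0.02 of a read, at 99.93% to 99.99% of positions, and 5, 4 and 1 values were not whole, for a reason the sources do not give. Fold changes and p-values between groups that the authors deposited were not used.

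Local ratios were tested with limma (3.58.1, R 4.3.3) on log2((CPM + 1)/(window median + 1)), intercept only with a trend, against 2-fold. The same test ran with edgeR (4.0.16) on recovered reads, with other windows, pseudocounts, filters and thresholds, and without each replicate. The test was also run on simulated data, with known 4-fold peaks and troughs set on a flat profile of independent positions. The real profile is uneven and its neighbouring positions are alike, so no conclusion is drawn from that run. All other values are descriptions, as mean ± SD over libraries. Named positions are the 3 most occupied of each spacer and the 2 of each rRNA gene (the 10 after a mature 3′ end apart), the 8 tallest spacer peaks, the 4 deepest spacer troughs, the least occupied stretch of each region and the 2 highest and 2 lowest contexts of 3 nucleotides. The most occupied stretches, position 6745 and the 4 troughs after position 11 were added after their values were seen. Folding energies came from RNAfold (2.7.2). Members, lists and tests were chosen with earlier results of these data known.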

Additional observations from a re-analysis of the deposited data

How the results depend on the processing

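Local peaks numbered 932 to 1007 and local troughs 801 to 883 when a single replicate was left out, and edgeR on recovered reads gave 1040 peaks and 943 troughs, which included 1011 of the 1011 peaks and 915 of the 921 troughs that limma called. A 4-fold threshold in the test left 254 peaks and 183 troughs, and requiring a position to exceed the mean of the 100 positions to each side by 3 SD in every library, with no test, left 101 peaks. The share of spacer peaks ending in adenine was 46.8% at the 4-fold threshold. It was 46.2% and 45.4% with windows of 25 and 100 positions to each side. For the top 2.5% of spacer positions by mean CPM it was 42.1%, and without positions within 10 of a mature rRNA end 45.5%. Without a replicate it was 44.7% to 45.3%. Guanine before was at 46.0% with the 4-fold threshold, 40.1% with windows of 100 and 43.7% without positions near a mature end. Without a replicate it was 41.6% to 42.2%. It was 50% for the top 2.5% by mean CPM, below the 55.3% ± 2.63 of the top 2.5% taken in each library (SD, n = 3). Without the 10 positions after each stretch at 0, spacers held 6.51%, ITS2 0.797% and ETS2 0.365% of occupancy. Over 26 named positions, 309 of 311 alternative values kept their direction and their call. These positions were picked from the same libraries, nearly all as the most occupied or the most extreme, so most could hardly have changed. That count therefore does not speak for the typical call. Position 2504 was no longer called at a local log2 ratio of 0.76 when windows crossed region borders, or at the 4-fold threshold. No paired analysis was possible because a single group of libraries was used. Positions with few reads, above all past T1, limit what can be called.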
